A study of Homo sapiens with 4 samples.

Results

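The serine and one-carbon enzymes of Kasumi-1 cells are described here with and without knockdown of ANP32B, an acidic nuclear phosphoprotein. They were chosen by name, as 9 enzymes of serine synthesis and of the folate cycle, and 8 of the 9 had a row among the 18567 genes of the deposited table. The row of the ninth, ALDH1L2, a mitochondrial formyl-tetrahydrofolate dehydrogenase, was not found, and it was not analysed here. RNA was sequenced from 4 samples of Kasumi-1, a cell line long established from an acute myeloid leukemia with the t(8;21) translocation. The NC group holds 2 samples that the labels call untreated and without shRNA, but a control hairpin is mentioned in the methods, and it is not known whether these 2 samples carried it. The sh-ANP32B group holds 2 samples in which ANP32B was knocked down by a short hairpin RNA. The study made stable lines with lentivirus and puromycin and designed 3 hairpins, and the labels do not say which hairpin a sample carried. The methods say in general that experiments were repeated independently, but not whether the sequenced samples of a group came from separate cultures, so p-values measure only the spread between these samples, which may be technical.

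Serine is made from a glycolytic intermediate, phosphoglycerate, in a chain of reactions run by PHGDH, PSAT1 and PSPH. The SHMT enzymes pass a carbon from serine to tetrahydrofolate and leave glycine, SHMT1 in the cytosol and SHMT2 in the mitochondria. The MTHFD enzymes interconvert the folate forms that carry this carbon, which cells use to build purines and thymidylate and to remethylate homocysteine. Proliferating cells are known to express many of these enzymes strongly, and MYC and ATF4 are known to activate several of their genes.

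The level of ANP32B was 383.8 and 392.0 TPM in the NC samples, and 51.8 and 41.2 TPM in the sh-ANP32B samples, 11.99% of the NC mean. TPM is a share of the transcripts of a sample, corrected for transcript length, so that levels can be compared between genes, and it keeps no sequencing depth. Each column summed to between 997812 and 998314 TPM, and sequencing depth could not be recovered from them. The sh-ANP32B replicates differed from each other in step with the GC content of transcripts, with a Spearman rho of 0.577 across 15427 genes, against -0.206 for the NC replicates. Of 9 markers of Kasumi-1 and myeloid blasts, 7 had a row. RUNX1T1, the partner of RUNX1 in the t(8;21) fusion, had 17.6 and 15.6 TPM in the controls, against 31.2 and 26.8 TPM after knockdown. KIT, a receptor usually strongly expressed in this line, lay between 1.55 and 3.41 TPM, which is low for it, and no row was found for CD34 or MPO. RUNX1T1 and KIT were named for this check of the label once their values were known. The identity of the line was not tested, and the cells are called Kasumi-1 as labelled.

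The promoters of the enzymes that were most changed are shown first, because MYC binds E-boxes (CACGTG) and ATF4 binds C/EBP-ATF response elements (TGATGNAA). RefSeq windows (GRCh38.p14) were found for 6 of the 8 enzymes, and those of PSPH and SHMT2 were not found. The 250 bases before the start site are printed 5′ to 3′ on the strand of the gene, with matches to either motif, searched on both strands, in capitals.

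MTHFD1 (chr14:64388103-64388352, plus strand): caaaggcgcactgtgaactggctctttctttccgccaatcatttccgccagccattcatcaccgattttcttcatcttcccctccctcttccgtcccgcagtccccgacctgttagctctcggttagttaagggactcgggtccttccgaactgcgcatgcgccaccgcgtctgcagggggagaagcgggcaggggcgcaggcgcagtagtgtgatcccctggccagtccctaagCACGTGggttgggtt

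PHGDH (chr1:119711684-119711933, plus strand): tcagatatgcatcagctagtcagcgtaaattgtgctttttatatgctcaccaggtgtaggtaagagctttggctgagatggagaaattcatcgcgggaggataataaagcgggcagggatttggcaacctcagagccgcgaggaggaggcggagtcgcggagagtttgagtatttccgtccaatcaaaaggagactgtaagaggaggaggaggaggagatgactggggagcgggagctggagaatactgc

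PSAT1 (chr9:78296875-78297124, plus strand): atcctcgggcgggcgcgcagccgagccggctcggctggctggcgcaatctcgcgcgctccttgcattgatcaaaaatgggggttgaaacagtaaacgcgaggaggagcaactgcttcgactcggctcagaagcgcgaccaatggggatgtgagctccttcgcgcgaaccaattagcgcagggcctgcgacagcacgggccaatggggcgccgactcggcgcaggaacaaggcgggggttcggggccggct

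MTHFD1L (chr6:150866197-150866446, plus strand): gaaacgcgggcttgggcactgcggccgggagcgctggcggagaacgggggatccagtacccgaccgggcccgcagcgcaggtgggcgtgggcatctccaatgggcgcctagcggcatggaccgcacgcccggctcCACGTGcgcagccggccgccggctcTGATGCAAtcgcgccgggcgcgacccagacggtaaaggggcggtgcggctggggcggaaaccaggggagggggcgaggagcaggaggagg

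MTHFD1 held 1 E-box, from base -15 to base -10 counted back from the start site, and no response element. MTHFD1L had 4 windows, and the one printed held 1 E-box and 1 response element, in capitals in that order. Both motifs were found in 2 of the 4, and neither in the other 2. PHGDH and PSAT1 held neither motif, nor did SHMT1 and MTHFD2. Among 35116 windows, 6.34% held the E-box and 3.14% the response element in the 250 bases before the start site. A match describes only the letters in this window, and binding was not measured in these samples.

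The comparison of sh-ANP32B with NC asks which genes change with ANP32B. If the NC samples carried no hairpin, effects of the virus, a hairpin and puromycin cannot be told apart from those of ANP32B. If they carried a control hairpin, effects of the ANP32B hairpin on other targets still cannot be told apart from those of ANP32B. All 8 enzymes were lower in both sh-ANP32B samples than in both NC samples, and 3 of them passed the test: MTHFD1, PSAT1 and PHGDH. The 8 enzymes summed to 1237 and 1241 TPM in the NC samples and 765.7 and 826.2 TPM in the sh-ANP32B samples, or 64.3% of the NC mean. Over all 16817 genes tested, 21.4% were lower without overlap between the groups and 42.1% had a negative fold change. The test was limma on log2(TPM + 1), with p-values adjusted over all genes tested, and 1.18% of all genes had an adjusted p under 0.05 and were lower, against 2.14% that were higher. The median log2 fold change was -0.46 for the 8 enzymes and 0.08 for all genes.

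**Figure D1:**
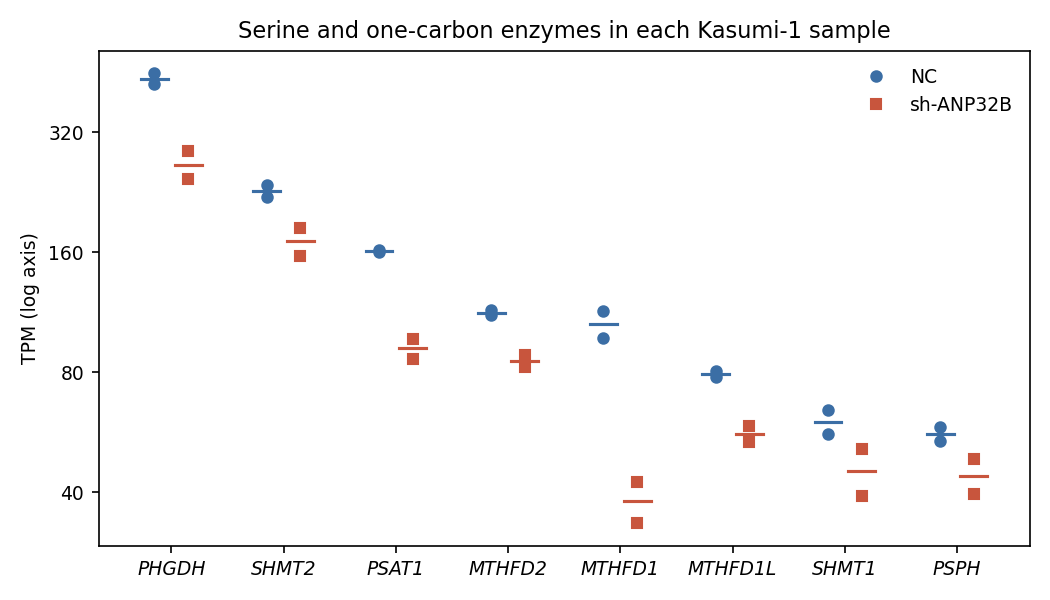
TPM on a log axis of the 8 enzymes in the 2 NC samples (circles) and the 2 sh-ANP32B samples (squares), ordered by NC mean, with a line at each group mean. Both squares lie under both circles for every enzyme, and MTHFD1 has the widest gap on this axis, from 106 to 37.9 TPM between group means.

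PHGDH, which takes the first and committed step of serine synthesis, was the most abundant of the enzymes. Its level was 450.2 and 422.2 TPM in the controls, against 243.9 and 286.4 TPM after knockdown. Both knockdown samples were well under both controls, and group means were 436 ± 19.8 and 265 ± 30.0 TPM (SD, n = 2 each). This is a log2 fold change of -0.72 with SE 0.134 and a limma adjusted p of 0.0454. PSAT1, the aminotransferase of the next step, had 160.3 and 161.7 TPM in the controls, against 97.0 and 86.5 TPM after knockdown. The NC samples nearly coincided, and the knockdown mean was 57.0% of theirs, for a log2 difference of -0.81 with SE 0.130 (limma adjusted p 0.0399).

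PSPH, the phosphatase that releases serine, had 53.7 and 58.3 TPM in the controls, against 48.4 and 39.5 TPM after knockdown. The groups did not overlap, but the gap between them was smaller than that between the knockdown samples. Its log2 fold change of -0.35 had a 95% interval from -0.73 to 0.03 (limma adjusted p 0.245). PSPH has an unprocessed pseudogene, PSPHP1, which was listed at 11.8 and 21.0 TPM in the controls, against 18.2 and 17.5 TPM after knockdown. The copies can share reads, and the value of PSPH is uncertain for that reason. Together the enzymes of serine synthesis summed to 664.1 and 642.2 TPM in the controls, against 389.3 and 412.4 TPM after knockdown.

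SHMT2, the mitochondrial enzyme that takes the carbon from serine, had 219.5 and 236.2 TPM in the controls, against 156.9 and 184.3 TPM after knockdown. Its log2 fold change of -0.42 (95% interval -0.75 to -0.09) did not pass the test, with a limma adjusted p of 0.132. SHMT1, its cytosolic counterpart, had 64.1 and 55.9 TPM in the controls, against 39.1 and 51.3 TPM after knockdown. The nearest samples of the groups were closer to each other than the replicates within either group. Its log2 fold change of -0.41 had a 95% interval from -0.84 to 0.02 (limma adjusted p 0.224). The means of SHMT2 and SHMT1 in sh-ANP32B were 74.9% and 75.3% of those in NC.

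MTHFD1, the cytosolic enzyme that carries 3 folate activities in a single protein, had the lowest fold change of the 8. It had 97.5 and 114.1 TPM in the controls, against 33.4 and 42.4 TPM after knockdown. NC averaged 106 ± 11.7 TPM and sh-ANP32B 37.9 ± 6.37 TPM (SD, n = 2 each), and the knockdown mean was 35.9% of that of NC. On the log2 scale this was -1.46 with SE 0.171 (limma adjusted p 0.0261), and 28 of the 16817 genes tested had a lower one. MTHFD1 (ENSG00000100714), which spans bases 64388031 to 64463457 of chromosome 14 (hg38, plus strand), overlaps ZBTB25 on the opposite strand. ZBTB25 had 17.6 and 19.0 TPM in the controls, against 28.7 and 24.2 TPM after knockdown, which is the opposite direction. SHMT1 likewise overlaps SMCR8, SHMT2 overlaps NDUFA4L2 and MTHFD2 overlaps SLC4A5 on the opposite strand, so that reads of either gene may be counted in the other. Whether the counting used strand is not given in the sources used here.

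MTHFD2, the mitochondrial dehydrogenase and cyclohydrolase, had 111.2 and 114.5 TPM in the controls, against 88.4 and 82.4 TPM after knockdown. Its replicates lay close together in both groups, and its log2 fold change of -0.40 (95% interval -0.70 to -0.09) had a limma adjusted p of 0.128. MTHFD1L, the mitochondrial enzyme that releases formate, had 80.5 and 77.8 TPM in the controls, against 58.6 and 53.4 TPM after knockdown. Its log2 fold change was -0.49 (95% interval -0.82 to -0.17, limma adjusted p 0.0952). MTHFD2 and MTHFD1L thus did not pass the test, although neither interval included 0. The processed copy MTHFD2P7 was listed at between 0.483 and 1.02 TPM.

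**Figure D2:**
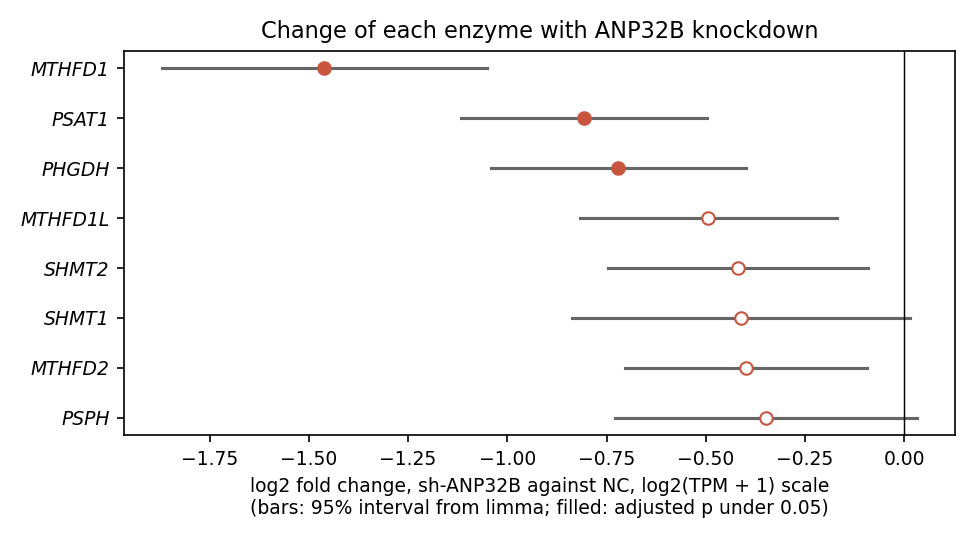
Log2 fold change of each enzyme on the log2(TPM + 1) scale, with its 95% interval from limma and filled points where the adjusted p was under 0.05. Only the intervals of SHMT1 and PSPH reach 0, and MTHFD1 at -1.46 lies apart from the other 7, which range from -0.81 to -0.35.

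The calls depended on the fit. With an abundance trend in limma, MTHFD1, PSAT1 and PHGDH were called, and without the trend 0 of the 8 enzymes and 0 of all genes were called, although 4 of the enzymes and 3701 of all genes had an unadjusted p under 0.05. Over 11 alternative fits the limma adjusted p ranged from 4.75e-08 to 0.114 for MTHFD1. It ranged from 0.00519 to 0.121 for PSAT1 and from 0.00753 to 0.138 for PHGDH. The lowest values of MTHFD1 and PSAT1 came from the replicate block. That fit pairs samples by number only and leaves 1 residual degree of freedom. After correction for GC content in each sample 6 enzymes were called, SHMT2, MTHFD2 and MTHFD1L in addition. Calls rose among all genes as well, to 1024 lower and 1754 higher of 15427, against 199 and 360 of 16817 without the correction. With a sample left out, the log2 fold change lay between -1.63 and -1.29 for MTHFD1 and between -0.89 and -0.72 for PSAT1. It lay between -0.84 and -0.60 for PHGDH, between -0.60 and -0.22 for SHMT1 and between -0.49 and -0.21 for PSPH. The ranges were -0.53 to -0.30 for SHMT2, -0.45 to -0.35 for MTHFD2 and -0.56 to -0.43 for MTHFD1L.

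The study's own criterion was a log2 fold change beyond -0.5 or 0.5 together with a p under 0.05. Its methods do not say whether that p was adjusted, and here the limma p was used without adjustment. With this p the criterion was passed by the same 3 enzymes, all lower, where 6.55% of all genes tested passed it as lower and 12.1% as higher. This split depended on the scaling. As deposited, 64.8% of the genes past the criterion were higher, and after median-of-ratios scaling 49.95% were. After median-of-ratios scaling 6 of the enzymes passed it, and PSPH and MTHFD2 did not. Under that scaling 1506 of 16835 genes tested passed it as lower, against 1101 of 16817 as deposited. The fold changes of all 8 enzymes stayed negative under every scaling.

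The order of the mean levels differed between the groups in the place of MTHFD1. In NC it ran from PHGDH through SHMT2, PSAT1, MTHFD2, MTHFD1, MTHFD1L and SHMT1 to PSPH, with overlapping ranges for MTHFD2 and MTHFD1 and for SHMT1 and PSPH. In sh-ANP32B MTHFD1 came last, and the other enzymes kept their sequence. There the ranges of PSAT1 and MTHFD2 overlapped, as did those of SHMT1, PSPH and MTHFD1 from each to the next.

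Cytosolic and mitochondrial enzymes of like steps were compared as ratios of TPM within a sample. The ratio of MTHFD1L to MTHFD1 was 0.825 and 0.682 in NC and 1.75 and 1.26 in sh-ANP32B. The ratio of MTHFD2 to MTHFD1 was 1.14 and 1.00 in NC and 2.64 and 1.94 in sh-ANP32B. In both ratios the knockdown samples lay above the controls, the fold change of MTHFD1 being the more negative one. The ratio of SHMT2 to SHMT1 was 3.42 and 4.22 in NC and 4.01 and 3.59 in sh-ANP32B, and the groups overlapped. These ratios are given as a description, and no test was made on them.

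**Figure D3:**
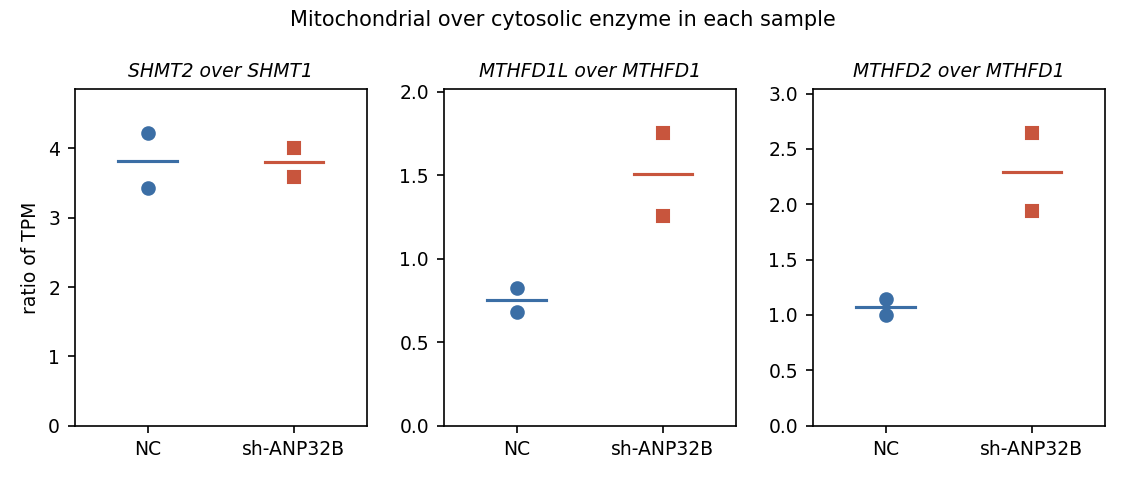
Ratio of the TPM of a mitochondrial enzyme to that of its cytosolic relative in each of the 4 samples, with a line at each group mean. The SHMT2 to SHMT1 ratios of the groups overlap, with 3.42 and 4.22 in NC around 3.59 and 4.01 in sh-ANP32B, whereas the MTHFD1L to MTHFD1 ratio is at most 0.825 in NC and at least 1.26 in sh-ANP32B.

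Other enzymes and carriers of folate had fold changes in both directions. Of 14 tested, 1 was called lower and 0 higher, 7 had a negative fold change and 7 a positive one, and their median log2 fold change was -0.0029. After median-of-ratios scaling 10 were negative and 4 positive, with a median log2 fold change of -0.0953. Under that scaling the median over all genes was 0.0009. At an unadjusted p under 0.05 with a log2 change past 0.5, 4 were lower and 1 higher. Without overlap between the groups, 6 were lower and 2 higher. Over all genes tested, 1.18% were called lower, 2.14% were called higher and 42.1% had a negative fold change. The study's criterion was passed by 6.55% as lower and 12.1% as higher, and 21.4% were lower and 33.2% higher without overlap. TYMS, which makes thymidylate with methylene-tetrahydrofolate, fell from 249.6 and 259.0 TPM in NC to 123.2 and 154.9 TPM after knockdown (log2 fold change -0.88, limma adjusted p 0.0431).

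GART and ATIC use formyl-tetrahydrofolate in purine synthesis, and ATIC was named once its value was known. GART had a log2 fold change of -0.51 and ATIC of -0.66, with limma adjusted p of 0.0799 and 0.0699. SLC19A1, the reduced folate carrier, and SLC25A32, the mitochondrial folate carrier, were also named afterwards. Their log2 fold changes were 0.01 and 0.06, with 95% intervals from -0.43 to 0.45 and from -0.30 to 0.43. The lowest and the highest fold changes among these 14 genes, also named afterwards, were those of GCSH and AMT, both parts of the glycine cleavage system. GCSH had 14.8 and 16.1 TPM in the controls, against 6.33 and 8.82 TPM after knockdown, for a log2 difference of -0.95 (limma adjusted p 0.0667). AMT had 30.1 and 27.5 TPM in the controls, against 41.8 and 51.1 TPM after knockdown, for a log2 difference of 0.67 (limma adjusted p 0.0767).

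Of 13 genes of serine use and transport that were tested, 0 were called lower by limma and 1 higher, and 9 had a negative fold change. At an unadjusted p under 0.05 with a log2 change past 0.5, 2 were lower and 1 higher. The shares of all genes tested past these limits were 6.55% lower and 12.1% higher. By limma 1.18% of all genes were called lower and 2.14% higher, and 42.1% had a negative fold change. Without overlap between the groups 7 of the 13 were lower and 1 higher, against 21.4% and 33.2% of all genes. After median-of-ratios scaling 11 of the 13 were negative, and 5 passed the study's criterion as lower and 1 as higher. Over all genes 1506 and 1503 of 16835 passed it under that scaling. SFXN3, a sideroflexin of the family that carries serine into mitochondria, rose from 65.0 and 66.1 TPM in NC to 132.4 and 131.3 TPM after knockdown, for a log2 difference of 1.00 with SE 0.125 (limma adjusted p 0.0299). SFXN1, the sideroflexin best known for serine transport and named once its value was known, had 77.4 and 78.1 TPM in the controls, against 75.1 and 63.2 TPM after knockdown, a log2 fold change of -0.17 (95% interval -0.52 to 0.17). SLC1A5, a plasma membrane carrier of glutamine and small neutral amino acids, had 189.6 and 181.8 TPM in the controls, against 105.6 and 140.1 TPM after knockdown. Its log2 fold change of -0.61 had a limma adjusted p of 0.0918.

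The methionine cycle takes up the methyl group made by this pathway. Of its 10 genes tested 0 were called by limma, 0 passed the study's criterion and 7 had a negative fold change. Over all genes tested 1.18% were called lower, 2.14% were called higher and 42.1% had a negative fold change. The criterion was passed by 6.55% as lower and 12.1% as higher. Without overlap between the groups 5 of the 10 were lower and 1 higher, against 21.4% and 33.2% of all genes. MAT2A, which makes S-adenosylmethionine, had 263.3 and 287.5 TPM in the controls, against 226.6 and 200.4 TPM after knockdown. AHCY, which clears S-adenosylhomocysteine, had 195.9 and 194.3 TPM in the controls, against 152.0 and 155.6 TPM after knockdown. Their log2 fold changes were -0.37 and -0.34, with unadjusted p of 0.0277 and 0.0256 and limma adjusted p of 0.158 and 0.152.

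The ATF4 list was examined because ATF4 is known to activate PHGDH, PSAT1, SHMT2 and MTHFD2. Of 19 genes tested 1 was called lower and 0 higher, and 2 were lower and 3 higher by the study's criterion. Over all genes tested, 1.18% were called lower and 2.14% higher, and 6.55% and 12.1% passed the criterion. The list had 12 negative and 7 positive log2 fold changes, with a median of -0.14. Without overlap between the groups 7 were lower and 6 higher. The shares over all genes were 42.1% negative and, without overlap, 21.4% lower and 33.2% higher. ATF4 itself had 343.0 and 368.0 TPM in the controls, against 255.3 and 307.5 TPM after knockdown (log2 fold change -0.34, limma adjusted p 0.203). SLC7A5, a carrier of large neutral amino acids, fell from 94.2 and 90.0 TPM to 47.3 and 54.8 TPM (log2 fold change -0.84, limma adjusted p 0.0426). DDIT4, a stress-induced inhibitor of mTORC1, had 351.3 and 339.8 TPM in the controls, against 423.0 and 634.1 TPM after knockdown, for a log2 difference of 0.58 (limma adjusted p 0.143). The knockdown samples of DDIT4 differed more from each other than replicate 1 did from the controls.

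In the list of MYC and proliferation genes, 4 of 11 were called lower and 0 higher, and all 11 had a negative fold change, with a median of -0.72. The shares over all genes tested were 1.18% called lower and 42.1% negative. MYC had a log2 fold change of -1.18, and the proliferation genes PCNA, MCM2 and MKI67 of -0.95, -0.95 and -0.90. The whole list summed to between 2234 and 2322 TPM in the controls, against between 1278 and 1454 TPM after knockdown, and none of its genes overlapped between the groups, where 21.4% of all genes were lower without overlap. The serine and one-carbon enzymes also summed lower in both knockdown samples. The order of these samples differed between the 2 sums. Replicate 1 of sh-ANP32B had 1454 TPM of this list and 765.7 TPM of the enzymes. Replicate 2 had 1278 and 826.2 TPM. Single genes went both ways within each set. PSAT1, PSPH, MTHFD2 and MTHFD1L were lower in replicate 2 than in replicate 1, and the other enzymes were higher. MYC, MCM2, TK1 and BIRC5 were higher in replicate 2, and the other genes of their list were lower. The sh-ANP32B replicates also differed with transcript GC content (Spearman rho 0.577), and the order of the sums was not tested.

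Markers of myeloid cells had positive fold changes, opposite in sign to those of the enzymes. Of 10 mature myeloid markers 7 were tested, and all 7 had a positive fold change, with a median of 0.97 on the log2 scale. By limma 1 of them, LYZ, was called higher, 6 passed the study's criterion as higher and 6 were higher without overlap, the exception being CSF1R, named for that reason. Over all genes tested 57.9% had a positive fold change, 12.1% passed the criterion as higher and 33.2% were higher without overlap. The mature list summed to between 764.8 and 817.1 TPM in the controls, against between 1532 and 1576 TPM after knockdown, and most of this was LYZ, the secreted lysozyme, with 669.4 and 696.8 TPM against 1360 and 1316 TPM. CD68, a lysosomal protein of macrophages, had 62.7 and 88.7 TPM in the controls, against 119.7 and 192.1 TPM after knockdown (log2 fold change 1.01, limma adjusted p 0.0819). No row was found for CD14, CD163 or MRC1.

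The 7 blast markers with a row also all had a positive fold change, with a median of 0.49, and all 7 were higher without overlap. By limma 0 were called, 4 had an unadjusted p under 0.05, and 3 passed the study's criterion as higher. Over all genes tested, 57.9% had a positive fold change and 33.2% were higher without overlap. By limma 2.14% were called higher, 12.1% passed the criterion as higher, and 3995 of 16817 had an unadjusted p under 0.05 in either direction. The 7 blast markers summed to between 636.0 and 663.2 TPM in the controls, against between 861.5 and 886.8 TPM after knockdown. SPI1, a transcription factor of the myeloid lineage, had 250.6 and 241.0 TPM in the controls, against 300.7 and 363.6 TPM after knockdown (log2 fold change 0.43, limma adjusted p 0.131). PTPRC, the leukocyte antigen CD45, had 113.1 and 116.3 TPM in the controls, against 203.3 and 146.5 TPM after knockdown (log2 fold change 0.59, limma adjusted p 0.115). Both myeloid lists had positive fold changes throughout under all of the other scalings. The part of the proliferation and myeloid lists in the levels of the enzymes was not tested, and in bulk samples a smaller share of cells with an RNA and less of that RNA per cell cannot be told apart. Of the lymphoid markers CD79A and NKG7 had a row, at up to 2.17 and 145.0 TPM, and of 7 erythroid and megakaryocyte markers 0 had one.

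**Figure D4:**
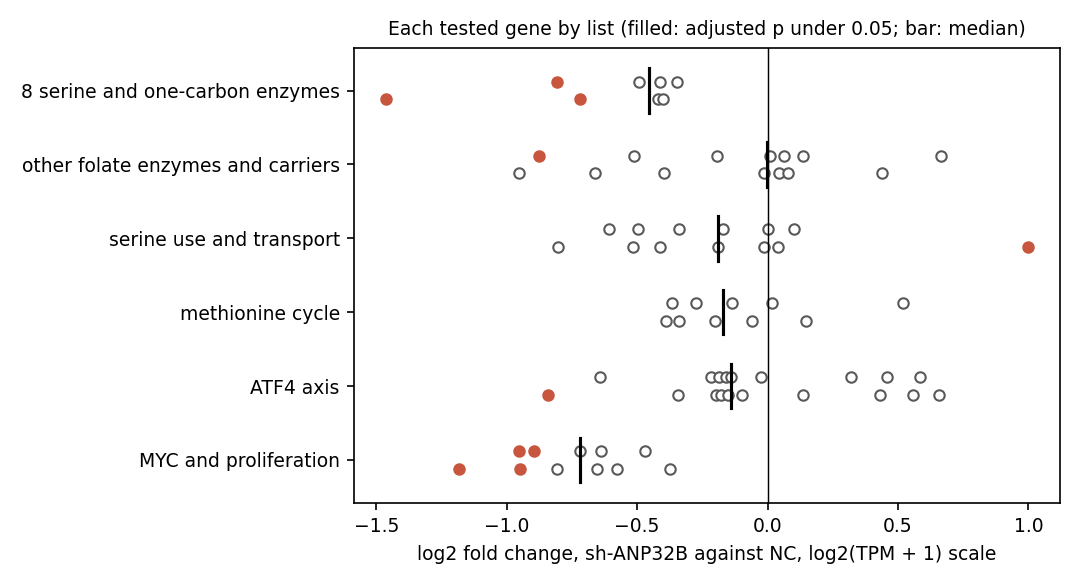
Log2 fold change of each tested gene, on the log2(TPM + 1) scale, in the 8 enzymes and 5 related lists, with filled points where the limma adjusted p was under 0.05 and a bar at the median. The 8 enzymes and the 11 MYC and proliferation genes lie wholly under 0, whereas SFXN3 at 1.00 is the filled point above it.

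Genes with the most similar course across the 4 samples were found by the root mean square difference of log2(TPM + 1), each gene centred on its own mean, among genes with a mean of at least 10 TPM. Nearest to PHGDH were NOP14 and POC1A, at 0.0136 and 0.0180 log2 units. Nearest to SHMT2 were ADSL and ASS1, at 0.0171 and 0.0240, and nearest to MTHFD2 were RCAN1 and HDHD2, at 0.00896 and 0.0169. NOP14, for example, had 67.5 and 64.3 TPM in the controls, against 36.6 and 42.3 TPM after knockdown, close to the proportions of PHGDH at a lower level. With 4 samples many genes share such a course, and the likeness is only a description.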

How the data were processed

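RNA of 4 Kasumi-1 samples was sequenced, 2 in each group as given by the labels. The authors aligned reads to hg38 with HISAT2 2.0.5 per the labels, and deposited TPM values. The program and annotation behind the TPM values are not given in the sources used here. Of 18567 gene IDs, 16986 had a symbol in GENCODE v44. The members and lists were chosen with earlier results of these data known.

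A gene was tested if it reached 1 TPM in 2 or more samples (16817 genes). Groups were compared on log2(TPM + 1) values by limma 3.58.1 in R 4.3.3, with the prior variance trended on abundance, two-sided and with Benjamini-Hochberg adjustment over all genes tested. The study's DESeq2 needs counts and was not run. The pseudocount understates the fold changes of low genes. Depth is unknown, so no counting interval was computed. Intervals are 95% limma intervals. The fit was tested on simulated data.

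From each list the text names the called genes (at most 6, by absolute fold change) and, with fewer than 2 called, the 2 most abundant. Other genes are said to have been named afterwards. Some genes of the folate list are not reported here. Same-numbered samples are not stated to share a batch, and the labels give no batch. Alternatives were other scalings, filters and pseudocounts, no trend, GC correction, replicate blocks, and leaving out each sample. Promoters are RefSeq sequences on GRCh38.p14. Scripts used Python 3.11.15, pandas 2.3.3 and matplotlib 3.10.9.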

Additional observations from a re-analysis of the deposited data

How the results depend on the processing

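The fold changes of all 8 enzymes kept their sign in 11 alternative fits and in the 4 that left out a sample. The number of enzymes called, 3 as reported, stayed at 3 under the other scalings, filters and pseudocount and with the replicate block. It was 0 without the abundance trend, 6 with GC correction, 5 when that was joined to the block, and 1 to 7 with a sample left out. Under the study's criterion it was 3, with 4 under upper-quartile scaling, quantile normalization, removal of mitochondrial transcripts and GC correction with or without the block, 6 after median-of-ratios scaling and 3 to 5 with a sample left out. Among all genes the calls, 559 as reported, were 0 without the trend, 2778 after GC correction, 1473 under the replicate block, 2351 with both, and 273 to 4079 with a sample left out, and those past the criterion, 3130, were 1884 to 3953 with a sample left out.

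Of the related lists, the other folate genes (1 called) had 0 without the trend, 3 with the replicate block, 4 after GC correction, 5 with both and 0 to 6 with a sample left out. The serine use and transport genes (1) had 0, 3 with GC correction, 3 with both and 0 to 5. The methionine cycle genes (0) had 2 with GC correction, 1 with the block as well, and 0 to 3. The ATF4 list (1) had 2 under each of the 4 other scalings and with at least 1 TPM in all samples, 0 without the trend, 3 with the replicate block, 7 after GC correction, 5 with both and 0 to 10. The MYC and proliferation list (4) had 0, 11, 8 with the block, 10 with both and 1 to 11. The cause of these shifts was not tested. A fit without 1 sample assumes that the lone sample of its group varies like the other group, and with 1 residual degree of freedom its calls follow the spread of the group that kept both.

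The replicate number is shared by the groups only as a number. Deviations of same-numbered samples had a Pearson r of -0.0925 across genes, and the replicate block changed no call among the 8 enzymes. Transcripts of the mitochondrial genome took 12.9% and 13.1% of TPM in NC and 11.4% and 8.43% in sh-ANP32B, and TPM computed without them gave the same 3 calls. Depth is unknown, which leaves the counting error of each value unknown.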
